A study of Mus musculus with 30 samples.

Results

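The genes described here are 34 genes of glucose uptake, glycolysis, lactate export and glycogen metabolism, taken from a fixed list of gene symbols. All 34 of the 34 symbols were found among the 33076 genes of the deposited count table, and all 34 passed the filter on low counts in every fit. They comprise 2 glucose transporters, 2 hexokinases, 9 genes of upper glycolysis and its regulation, 7 genes of lower glycolysis, 5 genes of lactate and glycerol phosphate handling and 9 glycogen genes. Bulk RNA-seq was carried out on the diaphragm of 15 male mice that model SBMA (spinal and bulbar muscular atrophy), an inherited neuromuscular disease. Each animal gave 2 libraries, 1 of the perisynaptic region, where the neuromuscular junctions lie, and 1 of the extrasynaptic region, which has none. SBMA mice carried the BACfxAR121 transgene (spelled BACfxR121 in some labels), a bacterial artificial chromosome with the disease allele. Controls were HSA-Cre;BACfxAR121 littermates, which carried the same transgene and in addition a Cre recombinase driven by the human skeletal actin promoter. The comparison is therefore between mice with the transgene everywhere and mice in which it was removed from skeletal muscle while other tissues kept it, and no library came from a mouse without the transgene. At 15 weeks of age there were 3 control and 4 SBMA animals, and at 26 weeks 4 and 4, which makes 8 groups of genotype, region and age.

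Skeletal muscle takes up glucose through transporters in its surface membrane, traps it as glucose 6-phosphate and either splits it to pyruvate and lactate or stores it as glycogen. Several steps have a muscle isoform beside one found in most tissues, and fast fibres, which work in short bursts, hold more glycolytic enzyme than slow fibres. Glycogen is built on a glycogenin core by glycogen synthase and the branching enzyme and broken down by glycogen phosphorylase, which phosphorylase kinase switches on.

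The stretches upstream of 3 members are shown because they stand for the movements described next: Hk2 and Pgam2 were among the largest decreases in SBMA muscle at 26 weeks, and Gpi1 was an increase called in both regions. Each is the 250 bases before the RefSeq start site on build GRCm38.p6, written 5′ to 3′ on the gene's strand. Capitals mark matches on either strand to the E-box CANNTG, bound by myogenic factors among others, the core ACGTG of hypoxia response elements, the hexamer AGAACA, a motif of steroid receptor binding, and the MEF2 site, a motif of many muscle genes.
Hk2, chr6:82774455-82774704, minus strand: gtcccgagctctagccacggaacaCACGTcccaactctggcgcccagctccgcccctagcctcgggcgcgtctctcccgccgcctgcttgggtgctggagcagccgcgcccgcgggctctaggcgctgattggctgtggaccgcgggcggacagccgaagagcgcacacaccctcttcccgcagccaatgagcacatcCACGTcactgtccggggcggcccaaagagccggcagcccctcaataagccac
Pgam2, chr11:5803797-5804046, minus strand: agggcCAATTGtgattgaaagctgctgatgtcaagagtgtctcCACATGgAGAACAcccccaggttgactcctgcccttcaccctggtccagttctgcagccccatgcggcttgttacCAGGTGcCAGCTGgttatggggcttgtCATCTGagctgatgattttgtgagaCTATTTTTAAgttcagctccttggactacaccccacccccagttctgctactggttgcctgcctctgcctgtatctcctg
Gpi1, chr7:34230337-34230586, minus strand: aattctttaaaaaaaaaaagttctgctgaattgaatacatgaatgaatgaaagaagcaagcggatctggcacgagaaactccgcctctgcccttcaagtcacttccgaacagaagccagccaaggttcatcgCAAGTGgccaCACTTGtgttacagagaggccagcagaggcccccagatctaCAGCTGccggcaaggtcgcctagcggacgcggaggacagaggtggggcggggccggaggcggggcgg
In these letters Hk2 held 2 hypoxia cores, at 226 to 222 and 52 to 48 bases before the start, and no E-box. Pgam2 held 5 E-boxes, 1 AGAACA hexamer at 200 to 195 bases before the start, and 1 MEF2 site at 80 to 71 bases before the start. Gpi1 held 3 E-boxes and none of the other motifs. Of the 34 members, 32 had an entry in the RefSeq promoter table, and the window with the start nearest to the annotated gene start was used for each. That start lay 19461 bases from the annotated one for Phkg1, 4329 for Ldha, 694 for Gapdh and 587 for Slc16a3. For the other members the distance was at most 304 bases. The windows of those distant starts are included in the counts that follow, and those of Ldha and Slc16a3 hold ACGTG. The E-box was present in 24 of these 32 windows (75%), against 66.2% of all 32851 windows of that length. ACGTG was present in 14 of 32 (43.8%) against 16.6% of all windows, AGAACA in 6 of 32 (18.8%) against 16.1%, and the MEF2 site in 1 of 32 (3.12%) against 1.69%. An E-box with CACGTG also holds the hypoxia core, so these motifs can overlap. Letters alone do not show that a factor binds there.

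Library totals ranged from 16280873 to 34694446 counts, and levels are given as CPM, each count relative to the library total after scaling with TMM factors. The 6 skeletal muscle markers were all detected in every group, and their summed level was between 38100 and 78630 CPM. The 6 junction markers summed to 207 to 354 CPM in perisynaptic and 35.4 to 187 CPM in extrasynaptic libraries. Control animal 2 at 26 weeks often stood at the edge of its group, with the highest value of the 4 controls for 16 of the 34 members in its perisynaptic and 18 of 34 in its extrasynaptic library. It was also the lowest for 11 of 34 in its perisynaptic library. At that age SBMA animal 4 was the lowest of its group for 13 of 34 members perisynaptic and 18 of 34 extrasynaptic. SBMA animal 1 was the highest for 10 and 14 of 34.

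The 34 members took a mean of between 1.90% and 2.19% of all counts in each of the 8 groups. Per kilobase of the longest transcript, Aldoa, the aldolase isoform of muscle, led with 2610 CPM per kb, followed by Eno3, the muscle enolase (1119), Pygm, the muscle glycogen phosphorylase (1064), Pgam2, the muscle phosphoglycerate mutase (984), and Pfkm, the muscle phosphofructokinase (841). The muscle isoform stood far above its partner at 5 steps: the ratio of levels per kb was 53.5 for Slc2a4 over Slc2a1, 35.4 for Hk2 over Hk1, 124 for Pfkm over Pfkl, 876 for Pgam2 over Pgam1 and 73.6 for Eno3 over Eno1. Of the monocarboxylate carriers that move lactate, Slc16a1 (49 CPM per kb) exceeded Slc16a3 (3.58 CPM per kb). The levels of 4 members are the most uncertain. Of their 50-base windows, 82.5% in Gapdh, 72.2% in Eno1, 68% in Pgk1 and 41.5% in Pgam1 also occur in transcripts of other genes. Counting that drops such reads lowers these levels. The next largest shares were in Pkm (34.4%), Ldhb (27%), Gpi1 (25.3%), Phkg1 (25%), Pfkp (17.1%) and Ldha (16.6%), whose levels may be lowered too. Gapdh, commonly among the most abundant muscle transcripts, had a mean level of only 9.59 CPM per kb here, so ratios that include Eno1 or Pgam1 are relative measures and not true proportions of isoforms.

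**Figure D1:**
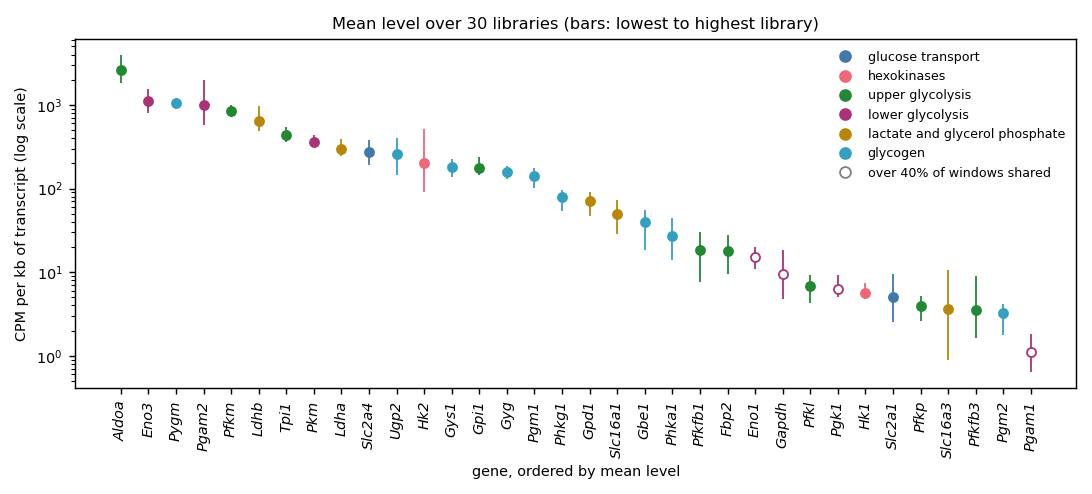
Mean level of each member over the 30 libraries in CPM per kb of transcript (log axis), with bars from the lowest to the highest library and colours for the steps. Aldoa leads at 2610 CPM per kb and Pgam1 is lowest at 1.12; the 4 open symbols are the genes that share over 40% of their windows with other genes.

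The question the design poses for these genes is whether the transgene in muscle changes them, and how far this depends on age and on the distance from the junction. At 26 weeks many of them were lower in SBMA than in control muscle and a few were higher. In the perisynaptic libraries 13 of 34 were called with edgeR's quasi-likelihood test at an adjusted p under 0.05, 4 higher and 9 lower, where 14% of all 15735 genes tested were called (8.04% higher and 5.97% lower). In the extrasynaptic libraries 23 of 34 were called, 6 higher and 17 lower, against 32.2% of all 15526 genes tested (16.1% higher and 16.1% lower). All 13 genes called in the perisynaptic libraries were also called, in the same direction, in the extrasynaptic libraries of the same animals. The median log2 fold change of the 34 was -0.26 and -0.35 in the 2 regions, beside -0.02 and -0.03 for all genes tested. At 15 weeks 0 of 34 were called in the perisynaptic libraries by edgeR (0.21% of all genes, 0.127% higher and 0.0826% lower), with 8 at an unadjusted p under 0.05 and 2 called by DESeq2. Here and below, counts at an unadjusted p or by DESeq2 have no share of all genes beside them. They are values only and no result about the members. In the extrasynaptic libraries 3 of 34 were called, all lower (Hk2, Aldoa and Pfkm; 1.22% of all genes, 0.554% higher and 0.67% lower). The medians at 15 weeks were -0.12 and -0.20, beside -0.01 and -0.01 for all genes.

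Scaling bears on the balance of directions. With total counts in place of TMM factors the median of all genes at 26 weeks moved to 0.24 (perisynaptic) and 0.18 (extrasynaptic). The median of the 34 members was then -0.02 and -0.14, still below that of all genes. The members called became 8 higher and 4 lower in the first and 6 higher and 8 lower in the second. At 15 weeks the extrasynaptic calls became 2 higher and 2 lower. Where calls over all genes under total counts are given (last section), most were higher. The counts of higher members are therefore no result about these genes. That scaling kept 8 of the 13 perisynaptic calls, losing Aldoa, Ldha, Ldhb, Slc16a3 and Pgm1, and 14 of the 23 extrasynaptic calls, losing Pfkp, Tpi1, Eno3, Ldha, Gpd1, Gyg, Phka1, Phkg1 and Ugp2. No called member changed direction under it. The 26-week animals fall into 2 runs of consecutive animal numbers, each with 2 animals of each genotype. Fitted alone, the lower-numbered run gave 0 perisynaptic and 16 extrasynaptic calls and the higher-numbered run 21 and 12. These counts also have no share of all genes beside them and are values only. All 13 and all 23 called members had the same sign in both runs. The calls were made on both runs together, so this agreement was largely fixed in advance and is no support. Sizes differed for some members: the extrasynaptic values of the 2 runs were -0.05 and -0.74 for Phka1 and 0.14 and 0.75 for Fbp2. The 15-week animals fall into other runs of numbers, in which the genotypes are not balanced. With a block of number runs the extrasynaptic call of Pfkm at 15 weeks was lost, and those of Hk2 and Aldoa were kept.

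**Figure D2:**
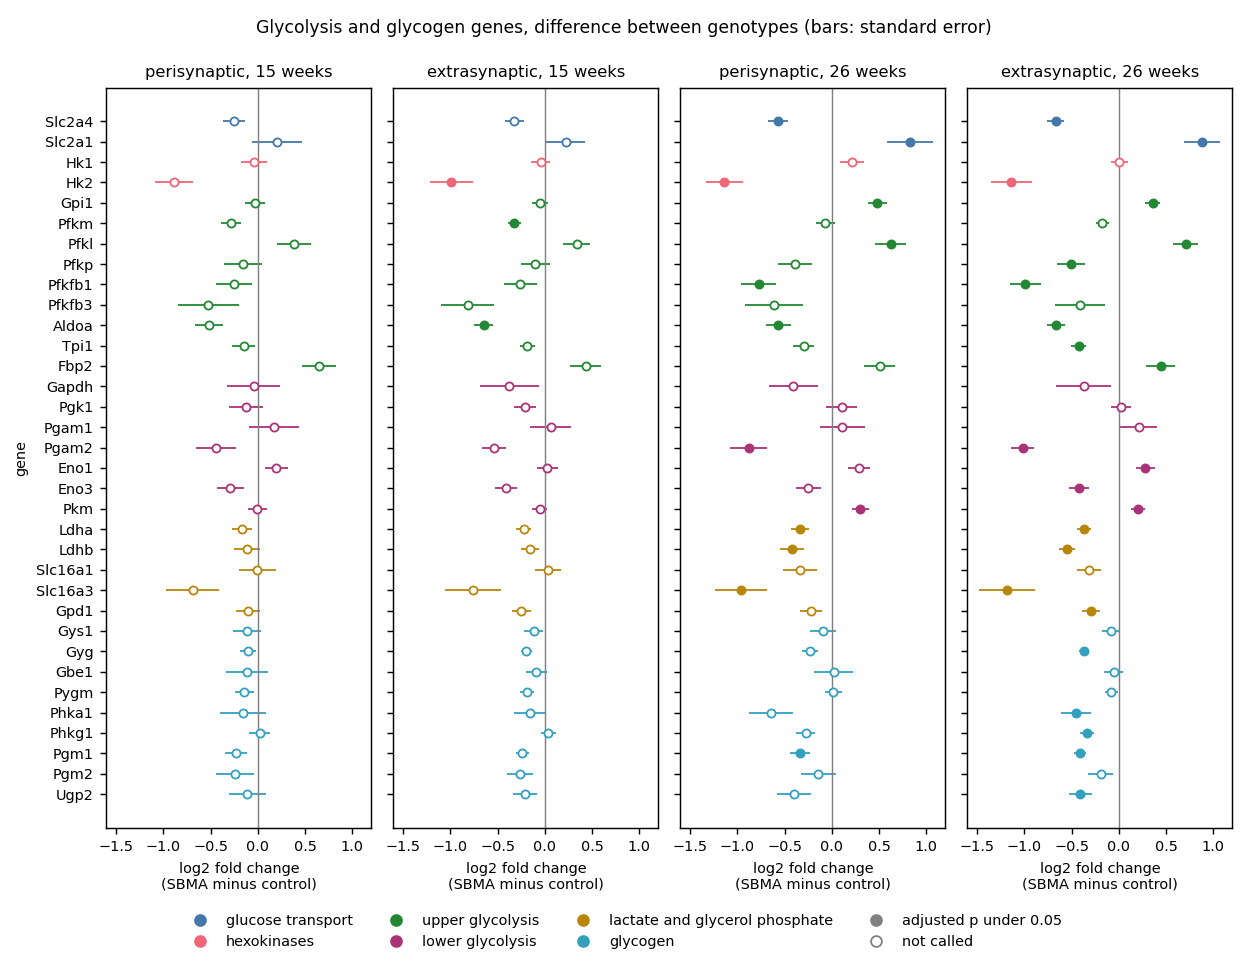
Log2 fold change, SBMA minus control, of the 34 members in each region and age (bars: standard error; filled symbols: adjusted p under 0.05; colours: steps). At 26 weeks Hk2, Pgam2, Pfkfb1, Slc16a3, Aldoa and Slc2a4 lie left of 0 and Slc2a1, Pfkl, Gpi1 and Pkm right of 0 in both regions.

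The 2 glucose transporters moved in opposite directions. Slc2a4 (chromosome 11, 69942539 to 69948188) encodes GLUT4, which insulin and contraction bring to the muscle surface. At 26 weeks it stood at 670, 722, 737 and 814 CPM in the perisynaptic libraries of control animals 1 to 4 and at 478, 492, 502 and 497 CPM in those of SBMA animals 1 to 4. The extrasynaptic values were 762, 914, 784 and 860 CPM in controls and 515, 555, 509 and 510 CPM in SBMA animals. The groups did not overlap in either region, and the SBMA animals lay much closer to each other than the controls did. Slc2a4 fell by 0.57 (SE 0.11, adjusted p = 0.00226) and by 0.67 (SE 0.09, adjusted p = 5.84e-05) on the log2 scale, to 67.3% and 62.9% of the control level. At 15 weeks the differences were -0.26 and -0.32 and were not called. Fat cells also hold GLUT4. The 7 adipocyte markers summed to 16.4 to 154 CPM in control and 44.2 to 83.1 CPM in SBMA perisynaptic libraries at 26 weeks. In the extrasynaptic ones the sums were 108 to 546 and 36.7 to 501 CPM. In either region 0 of the 6 tested were called by edgeR, where 14% and 32.2% of all genes were called. Ucp1, of brown fat, was at 0 in the perisynaptic controls. Their part in the result was not tested.

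Slc2a1 (chromosome 4, 119108711 to 119137983) encodes GLUT1, the transporter of basal uptake in most cells. It rose at 26 weeks, from 10.9, 19.8, 11 and 13.7 CPM in control animals 1 to 4 to 30.6, 30.9, 17.6 and 18.2 CPM in SBMA animals in the perisynaptic libraries, and from 8.25, 14, 8.84 and 11.1 to 24.6, 23.8, 16.4 and 13.2 CPM in the extrasynaptic ones. SBMA animals 1 and 2 were higher than SBMA animals 3 and 4 in both regions, and control animal 2 overlapped the SBMA range. The log2 fold changes were 0.83 (SE 0.24, adjusted p = 0.035) and 0.88 (SE 0.19, adjusted p = 0.00268). The perisynaptic call was lost without control animal 1, 3 or 4 or SBMA animal 1 or 2, with values of 0.69 to 1.05 over the 8 fits that left out 1 animal; the extrasynaptic call held in all 8. Vessels are also rich in GLUT1. The 6 endothelial markers summed to 417 to 683 CPM in control and 372 to 402 CPM in SBMA perisynaptic libraries and to 396.5 to 611 and 377 to 425 CPM in extrasynaptic ones. The 6 erythroid markers summed to 167 to 299 and 134 to 252 CPM in the perisynaptic and 172 to 272 and 142 to 260 CPM in the extrasynaptic libraries. No gene of either list was called higher in SBMA muscle at 26 weeks. Their part in the result was not tested.

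Hk2 (chromosome 6, 82725025 to 82774454) encodes hexokinase 2, which phosphorylates glucose in insulin-responsive muscle. At 26 weeks its perisynaptic values were 1007, 1083, 1185 and 1516 CPM in control animals 1 to 4 and 586, 497, 540 and 541 CPM in SBMA animals, and its extrasynaptic values were 1186, 1678, 1225 and 1563 CPM and 768, 637, 586 and 576 CPM. All 4 SBMA animals were below all 4 controls in both regions. The log2 fold change was -1.14 in each (SE 0.19, adjusted p = 0.00109, and SE 0.21, adjusted p = 0.000995), that is 45.4% of the control level. At 15 weeks the 3 controls were far apart, at 2803, 1037 and 1833 CPM in the extrasynaptic libraries, and the 4 SBMA animals stood at 904, 924, 1049 and 933 CPM. The lowest control lay within the SBMA range. The difference was called (log2 fold change -0.99, SE 0.23, adjusted p = 0.0463), but the call was kept in only 1 of the 7 fits that left out an animal, with values of -1.29 to -0.59. The perisynaptic value at 15 weeks was -0.89 and was not called. Hk1, the hexokinase of most tissues, was not called anywhere; its differences lay between -0.05 and 0.21 on the log2 scale.

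In upper glycolysis 4 of 9 members were called perisynaptic at 26 weeks (2 higher, 2 lower) and 7 of 9 extrasynaptic (3 higher, 4 lower). Among all genes 14% and 32.2% were called in these comparisons. In the extrasynaptic libraries isoforms of muscle and of other tissues were found in both directions. Aldoa (chromosome 7, 126795234 to 126800751), which splits fructose 1,6-bisphosphate, had the largest difference in CPM of the members. At 15 weeks its extrasynaptic values were 5283, 5212 and 5617 CPM in controls and 3631, 3437, 3442 and 3209 CPM in SBMA animals. At 26 weeks they were 5083, 5913, 4337 and 4236 CPM and 3268, 3174, 2947 and 2919 CPM. The groups did not overlap at either age. The log2 fold changes were -0.65 (SE 0.10, adjusted p = 0.00427) and -0.67 (SE 0.09, adjusted p = 9.77e-05), and each call held in every fit that left out 1 animal. In the perisynaptic libraries the change was -0.52 at 15 weeks, not called, and -0.57 (SE 0.14, adjusted p = 0.0114) at 26 weeks.

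Pfkm (chromosome 15, 98092589 to 98132451), the muscle form of the committed step, was called only at 15 weeks in the extrasynaptic libraries (log2 fold change -0.32, SE 0.07, adjusted p = 0.0367), where the 3 controls were at 2767, 2692 and 2795 CPM and the 4 SBMA animals at 2250, 2166, 2251 and 2148 CPM. That call was lost in each of the 7 fits that left out an animal, although the values stayed between -0.34 and -0.31. At 26 weeks its differences were -0.07 and -0.18 and were not called. Pfkl (chromosome 10, 77986947 to 78010083), the liver form, rose at 26 weeks. Its perisynaptic values were 18.1, 31, 18.2 and 18.6 CPM in control animals 1 to 4 and 34.5, 34.1, 32 and 30.4 CPM in SBMA animals, and its extrasynaptic values were 18.4, 27.6, 18.2 and 19.6 CPM and 34.4, 33.7, 34.9 and 33.8 CPM. Control animal 2 stood well above the other 3 controls in both regions and reached the SBMA range in the perisynaptic piece. The log2 fold changes were 0.62 (SE 0.16, adjusted p = 0.017) and 0.71 (SE 0.13, adjusted p = 0.000943); the perisynaptic call was lost without control animal 1 or control animal 3. Pfkp, the platelet form, fell in the extrasynaptic libraries (-0.51, adjusted p = 0.0162) and was not called in the perisynaptic ones (-0.39); its call was lost without control animal 1 or SBMA animal 3.

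Pfkfb1 (chromosome X, 150588229 to 150643878) encodes a kinase and phosphatase that sets the level of fructose 2,6-bisphosphate, the activator of phosphofructokinase. At 26 weeks its values were 31.9, 36.1, 34.3 and 36.1 CPM in the perisynaptic libraries of control animals 1 to 4 and 15.5, 14.4, 26.1 and 24.3 CPM in those of SBMA animals. The extrasynaptic values were 45.2, 44, 43.8 and 48.5 CPM and 17.6, 17.8, 29.3 and 26.5 CPM. The groups did not overlap, and SBMA animals 1 and 2 were the lowest. It fell by 0.77 (SE 0.18, adjusted p = 0.0102) and 0.99 (SE 0.16, adjusted p = 0.00037) on the log2 scale. Pfkfb3, an inducible enzyme of the same family, was not called in any comparison, with values from -0.82 to -0.41 and wide spreads. Gpi1, which turns glucose 6-phosphate into fructose 6-phosphate, rose by 0.48 (adjusted p = 0.00421) and 0.36 (adjusted p = 0.00358) at 26 weeks, with no overlap between the groups. Its lowest SBMA values were 565 and 532 CPM and its highest control values 516 and 529 CPM. Tpi1, the triose phosphate isomerase, fell in the extrasynaptic libraries (-0.43, adjusted p = 0.000642), and its perisynaptic value of -0.30 was not called. Fbp2, the muscle fructose bisphosphatase, rose in the extrasynaptic libraries (0.44, adjusted p = 0.0391), a call kept in 4 of 8 fits that left out an animal and lost without control animal 1 or 4 or SBMA animal 3 or 4 (0.31 to 0.53 over the 8 fits).

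**Figure D3:**
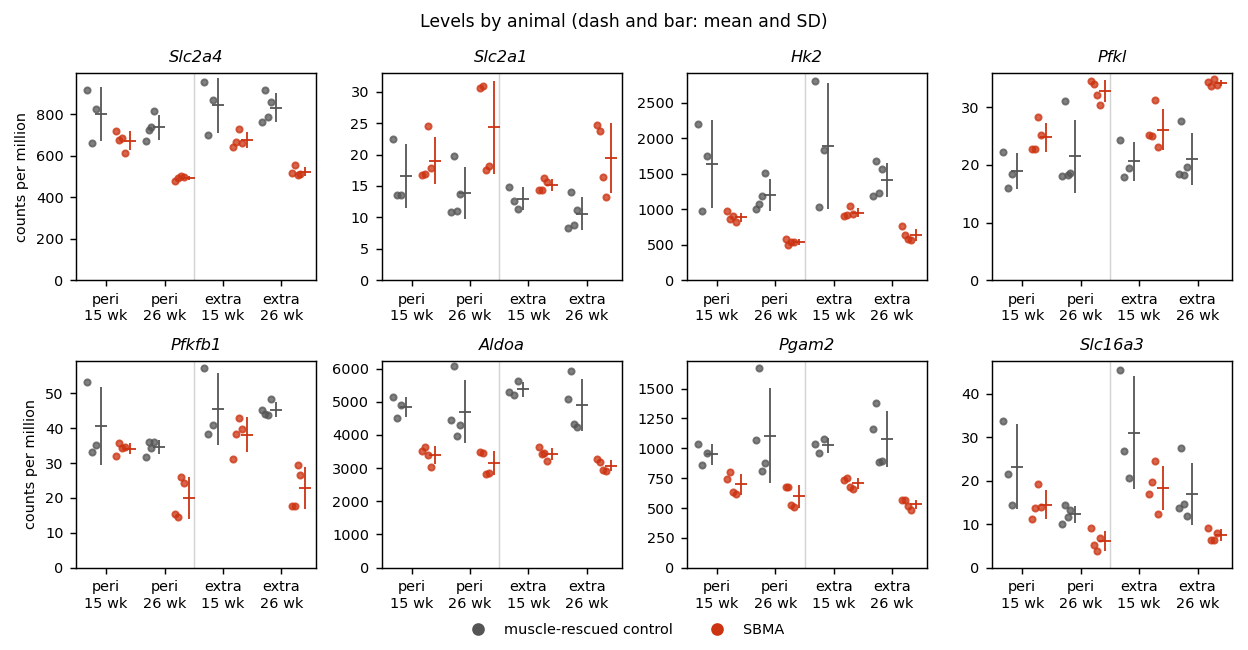
Levels in CPM (linear axes from 0) of 8 members in every animal, grouped by region and age, with the mean and SD beside the points; grey is control and red SBMA. At 26 weeks the SBMA animals lie below all controls for Slc2a4, Hk2, Pfkfb1, Aldoa, Pgam2 and Slc16a3 and mostly above them for Slc2a1 and Pfkl.

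In lower glycolysis Pgam2 changed most. Pgam2 (chromosome 11, 5801640 to 5803733) is the muscle phosphoglycerate mutase. At 26 weeks its perisynaptic values were 1069, 1676, 808 and 875 CPM in control animals 1 to 4 and 679, 673, 529 and 505 CPM in SBMA animals, and the extrasynaptic values were 1158, 1378, 882 and 894 CPM and 564, 564, 517 and 485 CPM. The groups did not overlap, and the controls were the more spread, with animal 2 the highest. The log2 fold changes were -0.88 (SE 0.20, adjusted p = 0.0071) and -1.02 (SE 0.12, adjusted p = 2.14e-05), to 54.2% and 49.4% of the control level. The extrasynaptic value at 15 weeks, -0.54, narrowly missed the threshold (adjusted p = 0.0556). Eno3 (chromosome 11, 70657202 to 70662513), the muscle enolase, stood at 2043, 2415, 1802 and 1792 CPM in the extrasynaptic libraries of the controls and 1601, 1632, 1543 and 1242 CPM in those of SBMA animals at 26 weeks. All 4 SBMA values were below all 4 controls, and the difference was called (-0.42, SE 0.11, adjusted p = 0.00821). In the perisynaptic libraries the values overlapped, at 1889, 2352, 1607 and 1708 CPM against 1711, 1717, 1582 and 1293 CPM, and the difference of -0.25 was not called.

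Pkm, the pyruvate kinase gene of muscle and of most other tissues, rose by 0.30 (adjusted p = 0.0425) and 0.20 (adjusted p = 0.0408) at 26 weeks. Both calls were near the threshold and were kept in only 2 of 8 fits that left out an animal, held only without control animal 2 or SBMA animal 4; the values were 0.28 to 0.34 and 0.16 to 0.26 over those fits. Eno1, the enolase of most tissues, rose in the extrasynaptic libraries (0.28, adjusted p = 0.045), a call also kept in only 2 of 8 such fits, lost without control animal 1, 3 or 4 or SBMA animal 1, 2 or 3 (0.22 to 0.37). Gapdh, Pgk1 and Pgam1, which catalyse the neighbouring steps, were not called in any comparison of the genotypes. Their low counts and shared sequence limit what could be detected.

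All 5 genes of lactate and glycerol phosphate handling had lower means in SBMA muscle at 26 weeks in both regions, and 3 and 4 of them were called (14% and 32.2% of all genes). Slc16a3 (chromosome 11, 120948480 to 120960868) encodes MCT4, the lactate exporter of glycolytic fibres. Its perisynaptic values at 26 weeks were 9.95, 14.4, 11.6 and 13.2 CPM in control animals 1 to 4 and 9.15, 5.21, 3.81 and 6.75 CPM in SBMA animals, and its extrasynaptic values were 13.7, 27.6, 14.7 and 11.8 CPM and 9.16, 6.46, 6.32 and 7.96 CPM. The groups did not overlap, though SBMA animal 1 came close to the lowest control. The log2 fold changes were -0.96 (SE 0.27, adjusted p = 0.0279) and -1.18 (SE 0.29, adjusted p = 0.00675), the largest decrease of any member in the extrasynaptic comparison; the perisynaptic call was lost without control animal 4 or SBMA animal 2, 3 or 4 (-1.21 to -0.79). Slc16a1 (MCT1), which also carries lactate into cells, was not called (-0.33 and -0.32).

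Ldhb (chromosome 6, 142490249 to 142507957) encodes the lactate dehydrogenase subunit typical of oxidative tissue. It was the more abundant subunit per kb here (638 CPM per kb against 300 for Ldha). Both genes share sequence with other genes (27% and 16.6% of windows), which limits that comparison. The values of Ldhb follow. At 26 weeks its perisynaptic values were 918, 1274, 911 and 890 CPM in controls and 734, 787, 748 and 684 CPM in SBMA animals. Its extrasynaptic values were 952, 1128, 893 and 921 CPM and 634, 705, 690 and 632 CPM. The groups were apart in both regions. Ldhb fell by 0.43 (adjusted p = 0.0371) and 0.55 (adjusted p = 0.000224), and the perisynaptic call was kept in 3 of 8 fits that left out an animal, being lost without control animal 2 or any SBMA animal (-0.48 to -0.29). Ldha, the subunit typical of fast muscle, fell by 0.34 (adjusted p = 0.0308) and 0.37 (adjusted p = 0.00178); its perisynaptic call was lost without control animal 1 or SBMA animal 2, 3 or 4 (-0.38 to -0.25). Gpd1, the cytosolic glycerol phosphate dehydrogenase, fell in the extrasynaptic libraries (-0.30, adjusted p = 0.0272), a call kept in 4 of 8 fits and lost without control animal 1 or 3 or SBMA animal 1 or 2 (-0.37 to -0.25).

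Of the 9 glycogen members 5 were called in the extrasynaptic libraries at 26 weeks and 1 in the perisynaptic ones, all lower, where 16.1% and 5.97% of all genes were called lower; the single perisynaptic call is no result about these members. The synthase Gys1 (-0.09 and -0.08), the branching enzyme Gbe1 (0.02 and -0.06) and the muscle phosphorylase Pygm (0.01 and -0.08) were not called. Pygm had a mean of 2930 ± 248 CPM (SD, n = 4) in control and 2938 ± 91.1 CPM (SD, n = 4) in SBMA perisynaptic libraries at 26 weeks. The 5 that fell were Pgm1 (-0.41, adjusted p = 0.00018), Gyg (-0.37, adjusted p = 0.00016), Ugp2 (-0.41, adjusted p = 0.0178), Phkg1 (-0.34, adjusted p = 0.00338) and Phka1 (-0.45, adjusted p = 0.0406). Pgm1 links glucose 6-phosphate to glucose 1-phosphate, Ugp2 makes the UDP-glucose from which glycogen is built, and Gyg is the glycogenin primer. Phka1 and Phkg1 are subunits of phosphorylase kinase in muscle. Pgm1 was also called in the perisynaptic libraries (-0.33, adjusted p = 0.0474), but only 1 of the 8 fits that left out an animal, the one without control animal 2, kept that call (-0.43 to -0.29). The Phka1 call was kept in 2 of 8 fits, those without control animal 1 or 2 (-0.58 to -0.23), and the Ugp2 call was lost without control animal 4 or SBMA animal 4 (-0.46 to -0.31). The symbols Pgm1 and Pgm2 have been exchanged between annotation releases; Pgm1 here is ENSMUSG00000025791. The gene here named Pgm2 was at 6.64 to 8.67 CPM in group means and was not called.

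A log2 ratio of 2 isoforms within a library does not depend on scaling between libraries, and it was compared between genotypes for 7 pairs with a two-sided exact permutation test. At 26 weeks, with 4 against 4 animals, the smallest possible p is 0.0286. Of the 14 tests at that age (7 pairs in 2 regions), 9 reached an adjusted p of 0.0444, the smallest given here by Benjamini-Hochberg adjustment over the 14. The mean Slc2a4/Slc2a1 log2 ratio went from 5.77 ± 0.39 (SD, n = 4) in control to 4.39 ± 0.48 (SD, n = 4) in SBMA perisynaptic libraries and from 6.32 ± 0.23 to 4.79 ± 0.40 in extrasynaptic ones (exact permutation p = 0.0286 in each). Hk2/Hk1 differed by -1.34 and -1.14, Pgam2/Pgam1 by -0.93 and -1.18, and Eno3/Eno1 by -0.54 and -0.70 on the log2 scale, with no overlap of the groups in either region. Pfkm/Pfkl differed by -0.91 in the extrasynaptic libraries without overlap. In the perisynaptic ones its difference of -0.72 did not pass (exact permutation p = 0.114, adjusted p = 0.123), since control animal 2 lay within the SBMA range.

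The Eno3/Eno1 ratio was the least spread of these. Its perisynaptic values at 26 weeks were 6.07, 6.03, 5.84 and 6.01 in control animals 1 to 4 and 5.50, 5.48, 5.46 and 5.35 in SBMA animals. At 15 weeks they were 6.20, 6.39 and 6.11 in controls and 5.76, 5.77, 5.73 and 5.72 in SBMA animals, so the groups were apart already at the younger age. Pfkm/Pfkl (-0.67 and -0.66) and Pgam2/Pgam1 (-0.59 and -0.64) were also apart at 15 weeks in both regions. Slc2a4/Slc2a1 and Slc16a3/Slc16a1 were apart then in the extrasynaptic libraries only, and Hk2/Hk1 and Ldha/Ldhb in neither region. With 3 against 4 animals no p under 0.0571 is possible at 15 weeks, and those ratios are given as values only. Ldha/Ldhb differed by 0.08 and 0.18 at 26 weeks and Slc16a3/Slc16a1 by -0.73 and -0.80, and none of these 4 differences passed (exact permutation p = 0.0571 to 0.257).

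**Figure D4:**
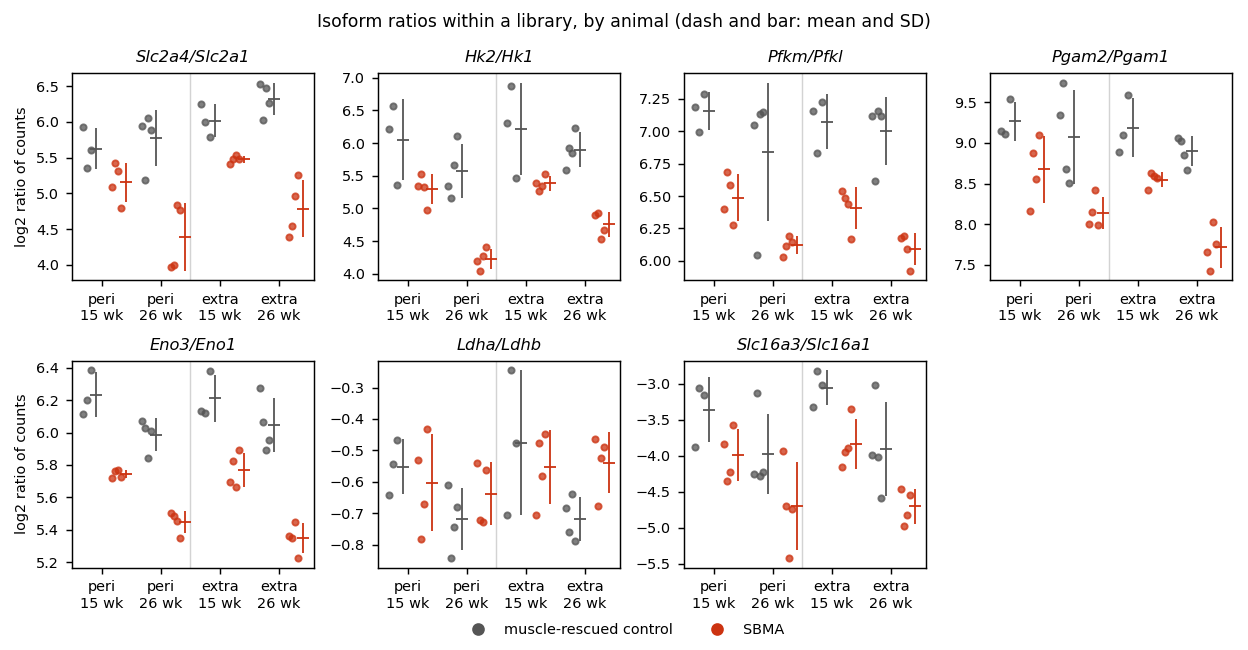
Log2 ratio of counts of 7 isoform pairs in every animal by region and age, with the mean and SD beside the points (grey control, red SBMA). At 26 weeks the SBMA animals lie below all controls in both regions for Slc2a4/Slc2a1, Hk2/Hk1, Pgam2/Pgam1 and Eno3/Eno1, while Ldha/Ldhb overlaps.

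Across the 8 groups the highest mean of a member was most often in the extrasynaptic controls of 15 weeks (17 of 34 members) and the lowest most often in a 26-week SBMA group (12 of 34 perisynaptic and 9 of 34 extrasynaptic). No share of all genes stands beside these counts, and the controls of 15 weeks were only 3 animals. They also rest on TMM scaling. In the extrasynaptic comparison at 15 weeks 27 of 34 members lay below 0 with TMM factors and 17 with total counts. In control muscle 0 of 34 members changed between 15 and 26 weeks in either region (0% of all genes; edgeR), with 3 perisynaptic and 2 extrasynaptic members at an unadjusted p under 0.05 and 0 called by DESeq2. In SBMA muscle 5 of 34 changed in the perisynaptic libraries, 1 higher and 4 lower (3.95% of all genes, 2.35% higher and 1.6% lower), and 10 of 34 in the extrasynaptic libraries, 3 higher and 7 lower (12.1% of all genes, 6.52% higher and 5.62% lower). Gpi1 rose with age by 0.51 (adjusted p = 0.00802) and 0.44 (adjusted p = 0.00273) in SBMA muscle. Slc16a3 fell by 1.20 and 1.30, Pfkfb1 by 0.75 and 0.74, Slc2a4 by 0.44 and 0.37 and Phkg1 by 0.43 and 0.39, each called in both regions. In controls the same change of Slc16a3 was -0.93 and -0.88 and was not called (adjusted p = 0.654 and 0.524), from means of 23.2 to 12.3 CPM and of 31 to 16.9 CPM; it had the smallest p of the 34 in both. In the extrasynaptic libraries Tpi1, Pgam2 and Pgm1 also fell and Eno1 and Pkm rose. With any 1 of the SBMA animals left out, 1 to 3 perisynaptic and 6 to 8 extrasynaptic members were called; Gpi1 kept its call in all of these fits in both regions, and Slc2a4, Pfkfb1, Slc16a3, Phkg1 and Pgm1 did so in the extrasynaptic ones. Tpi1, Pgam2, Eno1 and Pkm each lost the extrasynaptic call in several of them. The perisynaptic call was kept for Slc2a4 only without SBMA animal 4 of 15 weeks and for Pfkfb1 only without animal 3 or 4 of 26 weeks. Phkg1 kept it only without animal 3 of either age, and Slc16a3 lost it without animal 3 of either age or 2 of 26 weeks. With total counts Slc2a4 and Phkg1 lost the perisynaptic call, and Slc2a4, Tpi1, Pgam2 and Pgm1 the extrasynaptic one. The change of the genotype difference with age was tested directly as an interaction: 0 of 34 members passed in either region (0.375% of all genes perisynaptic, 0.241% higher and 0.133% lower, and 1.73% extrasynaptic, 1.01% higher and 0.715% lower; edgeR), with 2 and 9 at an unadjusted p under 0.05 and 1 and 2 called by DESeq2. The SBMA difference at 26 weeks was therefore not shown to exceed that at 15 weeks for any member by edgeR; the smallest adjusted p was that of Gpi1, 0.221 perisynaptic and 0.0997 extrasynaptic. Animals of different ages were different animals. No run of animal numbers held both ages, so age and run cannot be told apart.

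Between the pieces of the same diaphragm few members differed. In control animals 3 of 34 were called (2.85% of all genes, 2.1% higher and 0.75% lower): Slc2a1 was higher in the perisynaptic piece (log2 fold change 0.35, adjusted p = 0.00533), and Pfkfb1 (-0.28, adjusted p = 0.000946) and Slc16a3 (-0.41, adjusted p = 0.04999) were lower. The Slc16a3 call was kept in 1 of the 7 fits that left out a control animal, the one without animal 4 of 26 weeks (-0.51 to -0.31), and was lost with total counts. In SBMA animals 2 of 34 were called (3.53% of all genes, 2.8% higher and 0.731% lower), Slc2a1 (0.32, adjusted p = 0.00374) and Pfkfb1 (-0.17, adjusted p = 0.0307) in the same directions. These differences rest on the pairing of the 2 libraries of an animal, and without a term for the animal 0 members were called in either genotype. Without control animal 1 of 15 weeks 1 member was called in the controls, and 1 was called in SBMA muscle without SBMA animal 2, 3 or 4 of 15 weeks or 1, 2 or 3 of 26 weeks; without SBMA animal 4 of 26 weeks 4 were called. The perisynaptic piece also held more Schwann cell RNA: the 6 Schwann markers summed to 60.1 to 181 CPM there and 11.6 to 38.8 CPM in the extrasynaptic piece. Its part in the Slc2a1 difference was not tested. The difference between genotypes was not shown to vary with region for any member (0 of 34 at 15 weeks and 0 of 34 at 26 weeks; 0% and 0.0124% of all genes, the latter 0.0062% higher and 0.0062% lower; edgeR), with 1 and 2 members at an unadjusted p under 0.05 and 0 called by DESeq2.

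Other genes of these pathways were taken from 5 lists. Among 24 other glycogen enzymes and regulators, 23 were tested in the perisynaptic libraries at 26 weeks, of which 2 were higher and 3 lower, and 24 in the extrasynaptic libraries, of which 5 were higher and 3 lower. As 14% and 32.2% of all genes were called in these comparisons, the extrasynaptic count is close to that of genes at large. Stbd1, a glycogen-binding protein that tethers glycogen to membranes, was the clearest of them. At 26 weeks it stood at 20.9, 18.6, 21.4 and 25.6 CPM in perisynaptic libraries of control animals 1 to 4 and 69.3, 64.5, 70.2 and 65.9 CPM in those of SBMA animals, and at 21.4, 21.6, 26.4 and 24.2 CPM and 78.7, 76.8, 78.4 and 65.6 CPM in the extrasynaptic ones. All SBMA animals were above all controls at both ages and in both regions. The log2 fold changes were 0.75 (adjusted p = 0.0241) and 0.97 (adjusted p = 0.00114) at 15 weeks and 1.65 (adjusted p = 4.72e-07) and 1.68 (adjusted p = 1.41e-07) at 26 weeks. The perisynaptic call at 15 weeks was kept in 1 of the 7 fits that left out an animal, the one without control animal 2 (0.61 to 0.87); the other calls held in all. The increase with age of the genotype difference passed its own test in both regions, at 0.90 (adjusted p = 0.0287) and 0.70 (adjusted p = 0.046).

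Of the protein phosphatase subunits that bring phosphatase to glycogen, Ppp1r3c and Ppp1r3b moved the other way. Ppp1r3c stood at 295, 237, 432 and 512 CPM in perisynaptic libraries of control animals 1 to 4 and 175, 165, 172 and 200 CPM in those of SBMA animals at 26 weeks. It fell by 1.04 (adjusted p = 0.0102) and 1.11 (adjusted p = 0.000707) at 26 weeks and by 0.96 (adjusted p = 0.0373) in the extrasynaptic libraries at 15 weeks, a call kept in 1 of 7 fits, the one without control animal 2 (-1.21 to -0.74). Ppp1r3b stood at 10.5, 5.56, 9.65 and 6.80 CPM and 1.81, 2.28, 3.01 and 3.90 CPM in the same perisynaptic animals, and fell by 1.55 (adjusted p = 0.00453) and 1.47 (adjusted p = 0.000159). For both genes the groups of 26 weeks did not overlap.

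Among 17 genes of insulin and AMPK control of glucose uptake, 2 were higher and 0 lower in the perisynaptic and 4 higher and 3 lower in the extrasynaptic libraries at 26 weeks, beside 14% and 32.2% of all genes; the perisynaptic count is no higher than among genes at large. Sort1 (sortilin), a sorting receptor of GLUT4 vesicles, stood at 29.6, 17.4, 36.6 and 27.9 CPM in perisynaptic controls and 67.4, 66.4, 122 and 97 CPM in SBMA animals. All SBMA values exceeded all controls, and Sort1 rose by 1.67 (adjusted p = 0.000137) and 1.82 (adjusted p = 3.18e-06). Rab13, a small GTPase of GLUT4 translocation in muscle, rose by 1.45 in each region at 26 weeks (adjusted p = 0.000366 and 1.51e-05). In control muscle at 26 weeks the mean of Rab13 was 13.4 ± 5.67 CPM in the perisynaptic and 6.88 ± 1.21 CPM in the extrasynaptic piece (SD, n = 4). These means are given as values only.

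Of 15 genes of pyruvate entry to mitochondria, 3 were higher and 2 lower in the perisynaptic and 4 higher and 6 lower in the extrasynaptic libraries at 26 weeks (14% and 32.2% of all genes). Pdk2, a kinase that switches off pyruvate dehydrogenase, fell by 0.48 (adjusted p = 0.00172) and 0.59 (adjusted p = 9.81e-06), and Pdp1, the phosphatase that switches it on, fell by 1.01 (adjusted p = 0.0105) and 1.06 (adjusted p = 4.78e-05). Pdk1, another such kinase, rose by 0.61 in the extrasynaptic libraries (adjusted p = 0.000251). Of 18 transcription factors linked to glycolytic genes, 2 were higher and 1 lower in the perisynaptic and 2 higher and 2 lower in the extrasynaptic libraries, near the 14% and below the 32.2% of all genes. Hif1a, the hypoxia-inducible factor subunit, rose by 0.49 (adjusted p = 0.0323, lost without SBMA animal 2, 3 or 4) and 0.53 (adjusted p = 0.00101), and Mlx, a partner of glucose-sensing factors, by 0.61 (adjusted p = 0.000952) and 0.55 (adjusted p = 0.000757). Maf, a factor of fast fibres, fell by 1.24 (adjusted p = 0.00234) and 1.26 (adjusted p = 0.00181). Of 25 other glycolysis isozymes, 22 were tested, of which 0 were higher and 2 lower in the perisynaptic and 2 higher and 5 lower in the extrasynaptic libraries, at or below the 14% and 32.2% of all genes. Ldhd, a mitochondrial dehydrogenase of D-lactate, fell in both (-0.39, adjusted p = 0.00816, and -0.65, adjusted p = 6.31e-05).

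**Figure D5:**
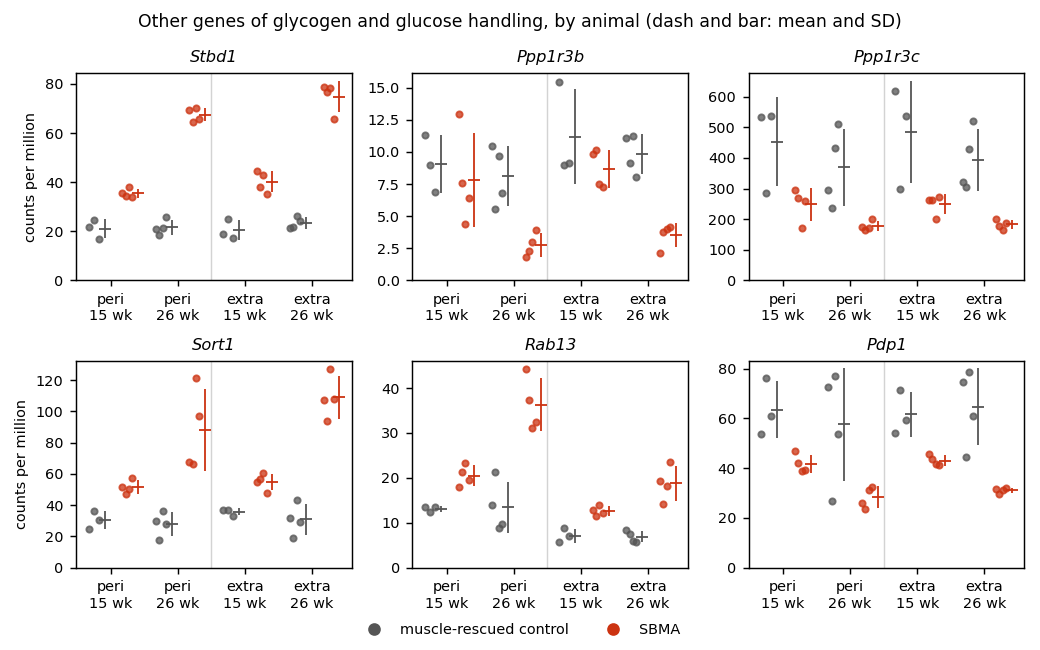
Levels in CPM (linear axes from 0) of 6 further genes of glycogen and glucose handling in every animal by region and age, with the mean and SD (grey control, red SBMA). At 26 weeks Stbd1, Sort1 and Rab13 are higher in all SBMA animals than in all controls of the same region and Ppp1r3b and Ppp1r3c lower, while Pdp1 overlaps in the perisynaptic libraries through 1 low control.

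Genes of the contractile apparatus moved beside the glycolytic genes. Of 14 fast fibre genes, 13 were lower in the perisynaptic and 14 in the extrasynaptic libraries at 26 weeks, with 0 higher. Among all genes 5.97% and 16.1% were called lower there. At 15 weeks 0 and 9 of the fast fibre genes were lower, beside 0.0826% and 0.67% of all genes. Myh4, the myosin of the fastest fibres, went from 2603 ± 920 CPM (SD, n = 4) in control to 159 ± 46.4 CPM (SD, n = 4) in SBMA perisynaptic libraries at 26 weeks, and Pvalb, the calcium buffer of fast fibres, from 1167 ± 250.3 to 160 ± 59.7 CPM. Of 12 slow fibre genes, 1 was higher and 6 lower in the perisynaptic and 2 higher and 6 lower in the extrasynaptic libraries (14% and 32.2% of all genes were called in either direction). Myh7, the slow myosin, fell by 0.88 (adjusted p = 0.00532) and 0.75 (adjusted p = 0.0175); the second call was lost without control animal 3 or SBMA animal 1. Of the 6 general muscle markers, 1 was higher (Des) and 2 lower in the perisynaptic and 1 higher (Des) and 3 lower in the extrasynaptic libraries. Among all genes 14% and 32.2% were called in either direction. Ckm, the muscle creatine kinase, fell by 0.79 and 0.92. The summed level of the 6 markers ranged from 58580 to 72410 CPM in control and 38100 to 48440 CPM in SBMA perisynaptic libraries at 26 weeks. In the extrasynaptic ones it ranged from 61290 to 72550 and 45730 to 52570 CPM. None of the 6 was at 0 in any group. Markers of other cells also moved in the extrasynaptic libraries at 26 weeks, where 16.1% of all genes were called lower and 16.1% higher. Lower were 4 of 6 macrophage, 4 of 6 fibroadipogenic progenitor, 4 of 6 mesothelial, 2 of 6 smooth muscle and pericyte and 1 of 6 endothelial genes. The endothelial count is close to that share. Higher were 3 of 6 junction genes. In control and SBMA libraries there, the macrophage markers summed to 132 to 174.5 and 92.9 to 110.0 CPM, the fibroadipogenic ones to 1103 to 1317 and 793 to 1130 CPM, the mesothelial ones to 299.8 to 339.9 and 101 to 283 CPM, and the smooth muscle ones to 617 to 688 and 473 to 534 CPM. In the perisynaptic libraries, where 5.97% of all genes were called lower and 8.04% higher, 1 macrophage gene and 1 smooth muscle gene were lower. There 1 junction gene was higher. The part of these changes in those of the glycolytic genes was not tested, and in bulk tissue fewer fibres of a type and less RNA per fibre cannot be told apart.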

How the data were processed

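Processed data of 30 libraries from 15 mice were used. Per the labels' protocols, RNA came from miRNeasy columns and was converted to libraries by the KAPA Stranded mRNA-Seq chemistry. The deposited values are raw counts per gene, made by the authors with featureCounts on mm10 per the submitters' processing notes. As the aligner, annotation release and strand setting were not given in the sources used here, reads from overlapping antisense genes may not be separated. Identifiers were matched to GENCODE vM21 (33064 of 33076; the other 12 carried 0.00171% of counts). Aldoa has 2 identifiers in that annotation, and the one with 2970415 counts was used (the other has 222).

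Counts were fitted with edgeR 4.0.16 (R 4.3.3; TMM factors, filterByExpr with a minimum count of 10 and total of 15, quasi-likelihood F test, Benjamini-Hochberg adjustment over all genes tested, threshold 0.05). SBMA minus control, age and their interaction came from a fit of 15 libraries per region with 4 group means. Region and its interaction with genotype came from all 30 libraries with a term per animal (19 columns, 11 residual degrees of freedom). The SE was derived from the fold change and F. The fit was tested on simulated counts. Exact permutation tests used scipy 1.17.1; ratios had 0.5 added to each count. Alternatives were DESeq2 1.42.0, RLE factors, total counts, no filter, a replicate block, a block of animal number runs, each run alone, only the 2 groups compared, no animal term and each animal left out.

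Total counts were 16280873 to 34694446 per library. The labels name no molecular identifiers, and errors are those between animals; the sample labels name no litter, batch or day for an animal. The 34 members and all other lists were chosen with earlier results of these data known. Full values are given for members called between genotypes that were among the 8 with the largest change in that comparison or led their step by level, and Pfkm, added after its values were seen, as 1 of 3 calls. Some results on single genes outside the 34 are not reported here. Other genes named are among the 4 smallest p-values of their list in a comparison of genotypes. Deviations of SBMA and control animals with the same replicate number correlated at 0.0528 to 0.398 (perisynaptic) and 0.00467 to 0.175 (extrasynaptic) at 26 weeks. At 15 weeks the values were -0.0941 to 0.0154 and -0.222 to 0.0149. All values of 26 weeks were above 0, and the replicate number there also follows the number runs. Whether the number pairs animals at that age is not settled. The main fits did not pair them, and the replicate block was an alternative. The 2 libraries of an animal, linked by the library names, correlated at 0.09 to 0.615.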

Additional observations from a re-analysis of the deposited data

Results flagged for a closer look

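In 13 of 204 groups of 4 animals, the highest or lowest animal stood far enough from the others to pass a test for a single distant value, which chance alone passes in about 1 of 20 groups. In perisynaptic controls of 26 weeks these were the highest values of Pfkl (30.98 CPM), Pgk1 (16.92 CPM), Eno1 (35.98 CPM) and Ldhb (1274 CPM). In extrasynaptic controls of 26 weeks they were the highest value of Pfkl (27.62 CPM) and the lowest of Fbp2 (15.31 CPM). In SBMA libraries of 26 weeks they were the highest extrasynaptic values of Slc2a4 (555 CPM), Gbe1 (152.4 CPM) and Pgm1 (307.8 CPM) and the lowest perisynaptic value of Pgm2 (4.177 CPM). In SBMA perisynaptic libraries of 15 weeks they were the highest values of Slc2a1 (24.58 CPM) and Hk1 (28.58 CPM) and the lowest of Pkm (778.3 CPM).

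The difference between genotypes changed with age, by edgeR's test of that change over all genes, for 3 genes outside the 34. Stbd1 gained 0.904 on the log2 scale in the perisynaptic and 0.703 in the extrasynaptic libraries, and Sort1 gained 1.20 in the extrasynaptic ones (adjusted p = 0.0245). The value for Aldoc, an aldolase at around 1 to 2 CPM, was -1.41 in the extrasynaptic libraries (adjusted p = 0.0486), where its difference was 0.90 at 15 weeks and -0.51 at 26 weeks and was called at neither age.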

How the results depend on the processing

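Counts of called members are given against the values above. At 26 weeks the perisynaptic count of 13 became 6 with only the 2 groups compared, 0 in the lower-numbered and 21 in the higher-numbered run alone, and 7 to 18 with 1 animal left out. The lower counts were 8 without control animal 1, 7 without SBMA animal 2 and 8 without SBMA animal 3, and the highest was 18 without control animal 2. The extrasynaptic count of 23 became 14 with total counts, 12 in the higher-numbered run alone and 18 to 23 with 1 animal left out. At 15 weeks the perisynaptic count of 0 became 2 with DESeq2, 1 with no filter, 1 with a block of number runs and 0 to 1 with 1 animal left out; the extrasynaptic count of 3 became 8 with DESeq2, 1 with the replicate block (Aldoa kept, Hk2 and Pfkm lost) and 1 to 3 with 1 animal left out. The replicate block kept 10 of the 13 and 17 of the 23 calls at 26 weeks. The interaction with age gave 1 and 2 calls with DESeq2 and up to 1 (extrasynaptic) with 1 animal left out. The change with age in SBMA muscle gave 9 perisynaptic calls with DESeq2 in place of 5 and, with 1 animal left out, 1 to 3 perisynaptic and 6 to 8 extrasynaptic calls in place of 5 and 10. For region, the 3 calls in controls became 5 (DESeq2), 8 (no filter), 0 (no animal term) and 1 to 4 (1 animal left out), and the 2 in SBMA animals became 4, 6, 0 and 1 to 4, and 1 with total counts. The causes were not tested. Over all genes, total counts raised the calls from 2204 to 4642 (perisynaptic, 26 weeks; 91.7% higher) and from 190 to 2356 (extrasynaptic, 15 weeks; 95.4% higher); the perisynaptic 2204 became 1302 with only the 2 groups and 72 in the lower-numbered run, and the extrasynaptic 5007 became 3119 and 1616 in the 2 runs. At 15 weeks the 33 and 190 calls became 129 and 489 with DESeq2, 68 and 291 with no filter, 10 and 47 with the replicate block, and as few as 6 and 81 with 1 animal left out. No called member reversed its sign under any alternative run. The 9 isoform ratios past the threshold remained 9 with 0.1 or 2 added to each count; with 1 animal left out 3 against 4 cannot pass. Precision is limited by 3 or 4 animals per group, and for Pgam1, Pgm2 and Slc16a3 by low counts.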
